A study of Homo sapiens with 8 samples.

Results

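The 36 tRNA genes that the deposited table assigns to phenylalanine (18 genes, anticodon GAA), tryptophan (8 genes, anticodon CCA) and histidine (10 genes, anticodon GTG) were examined, out of 631 genes in the table. They were chosen by the amino acid column alone, leaving out rows whose name starts with nm-. The names of 2 of them disagree with that column, since Glu-GAA-chr1-18 and Glu-GAA-chr1-125 begin with glutamate but are listed as phenylalanine genes. All 36 genes had at least 1 count in every library.

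A tRNA reads a codon through 3 anticodon bases, numbered 34 to 36 in the standard scheme, and carries the matching amino acid to the ribosome. Adenosine deaminase acting on tRNA, a heterodimer that contains ADAT2, converts adenosine 34 to inosine. The phenylalanine and histidine tRNAs carry guanosine at that position and the tryptophan tRNA carries cytidine, so none of them is a known substrate of this enzyme. They are modified by other routes. The guanosine 34 of tRNA-His, as of tRNA-Asn, tRNA-Asp and tRNA-Tyr, can be replaced by queuosine, and THG1L adds an extra guanosine to the 5′ end of tRNA-His. Human tRNA-Phe carries a wybutosine derivative next to its anticodon, and FTSJ1 methylates riboses at positions 32 and 34 of tRNA-Phe and tRNA-Trp.

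The libraries were made from total RNA of HEK293T, a human embryonic kidney cell line. In the ADAT2 knockdown group, cells had received Cas9 and a guide to human ADAT2, which gave a stable heterozygous line labelled with 50% ADAT2 expression. The control group had received the Cas9 plasmid with no guide and is labelled with 100%. Each group has 2 libraries, replicate numbers 3 and 4, and each library was sequenced on 2 lanes. Each group is 1 cell line, so ADAT2 and anything else in which the lines differ cannot be told apart. Whether the libraries of a line stem from separate cultures is not labelled, and the p-values measure their spread, technical or not. Library totals were 878791 and 1211292 counts in knockdown libraries 3 and 4 and 698143 and 1069932 counts in control libraries 3 and 4. The table lists tRNA genes only, so neither the cell line nor the ADAT2 level could be checked in it.

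Sequences are shown for the genes on which the results turn, as far as the reference tables held them, on GRCh38, from 5′ to 3′ of the tRNA and with the anticodon in capitals. His-GTG-1-8 (chr15:45200413-45200484, minus strand) stands for the histidine genes with most counts. Of these, His-GTG-1-6 and His-GTG-1-4 could not be read, so their match rests on the shared symbol number alone. Phe-GAA-1-5 (chr13:94549650-94549722, minus strand) stands for the phenylalanine genes with its symbol number. None of the others with that number could be read, so their match rests on the number too. Trp-CCA-1-1 (chr17:8220869-8220940, minus strand) is the only tryptophan gene that could be read, and it does not stand for those with other symbol numbers. Phe-GAA-8-1 (chr6:78958296-78958365, minus strand) is a divergent phenylalanine gene with a deposited score of 40.73 that overlaps a RefSeq pseudogene. In it the libraries numbered 4 and 3 differed most. Phe-GAA-9-1 (chr1:143792729-143792790, minus strand) is shown because of the glutamate names in this family, and Glu-TTC-4-2 (chr1:161422093-161422164, minus strand), a glutamate gene outside the 3 families, is its comparison.
His-GTG-1-8: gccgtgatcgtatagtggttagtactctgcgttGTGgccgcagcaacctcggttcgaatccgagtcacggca
Phe-GAA-1-5: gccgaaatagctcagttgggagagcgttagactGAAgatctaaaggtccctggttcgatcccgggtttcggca
Trp-CCA-1-1: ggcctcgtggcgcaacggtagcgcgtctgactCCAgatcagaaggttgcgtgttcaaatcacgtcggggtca
Phe-GAA-8-1: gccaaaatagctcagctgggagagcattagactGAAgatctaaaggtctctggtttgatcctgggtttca
Phe-GAA-9-1: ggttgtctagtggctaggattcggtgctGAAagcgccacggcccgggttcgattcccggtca
Glu-TTC-4-2: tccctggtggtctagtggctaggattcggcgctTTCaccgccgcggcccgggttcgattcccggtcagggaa

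These stretches were read by position from RefSeq promoter windows (GRCh38.p14) or GENCODE v29 transcripts that run through the genes. His-GTG-1-3, His-GTG-1-7 and His-GTG-1-9 could be read in the same way and were identical to His-GTG-1-8 over all 72 bases. Phe-GAA-8-1 was 87.7% identical to Phe-GAA-1-5, with 3 gap columns counted as differences. The substitutions were G4A, T16C, G26A, C49T, C56T and C62T (the base of Phe-GAA-1-5, its position counted from 1 at the 5′ end, then the base of Phe-GAA-8-1). With gap columns counted as differences, Phe-GAA-9-1 was 56.0% identical to Phe-GAA-1-5 (15 gap columns, 18 substitutions). It was 76.4% identical to the longer Glu-TTC-4-2 (10 gap columns, 7 substitutions). Glu-GAA-chr1-18 held the same 62 bases as Phe-GAA-9-1. A search of both strands for GTTCNANNC, the core of the B box with which RNA polymerase III genes bind TFIIIC, matched 8 of the 9 members read, on the shown strand, against 1.78% of the first 72 bases of 35116 RefSeq promoter windows. Several of the members read are identical copies, as given above, so these are not independent matches. The members are predicted tRNA genes, so the matches may follow from how they entered the table, and promoter windows are not a matched background. The gene without these letters was Phe-GAA-8-1, at C56T in the comparison above.

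The genes lie on 10 chromosomes, 12 of them on chromosome 6. By GENCODE v29, 25 lie between annotated genes, 4 in introns and 7 overlap an exon. Chromosome 6 holds 7 of the phenylalanine genes within 254667 bases (28727078 to 28981744), and chromosome 15 holds 3 histidine genes within 2617 bases (45198606 to 45201222). No member has an intron flag in the table. Of the 36 genes, 27 match a RefSeq tRNA locus at both ends, and of these RefSeq lists Phe-GAA-11-1 alone as a pseudogene. Phe-GAA-8-1, Phe-GAA-9-1 and Glu-GAA-chr1-125 overlap RefSeq tRNA pseudogenes without matching them at both ends. The gene prediction score in the deposited table was at least 50 for 29 members and under 50 for 7. All 10 histidine genes and 7 of the 8 tryptophan genes passed that score, against 12 of the 18 phenylalanine genes.

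Histidine genes gave most of the counts of the 3 families. The His-GTG family took 0.919% and 2.41% of all counts in knockdown libraries 3 and 4, against 0.889% and 2.23% in control libraries 3 and 4. Phe-GAA took 0.266% and 0.216% in the knockdown libraries, against 0.265% and 0.239% in the controls. Trp-CCA took 0.0908% and 0.191% in the knockdown libraries, against 0.0985% and 0.159% in the controls. Within each number the knockdown and control libraries lay close together, and the libraries of 1 group lay far apart for His-GTG and Trp-CCA. Together the 36 genes held 1.28% and 2.82% of counts in the knockdown libraries and 1.25% and 2.63% in the controls. The 95% Wilson intervals of these shares cover counting error only and are drawn in the plot of family shares.

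**Figure D1:**
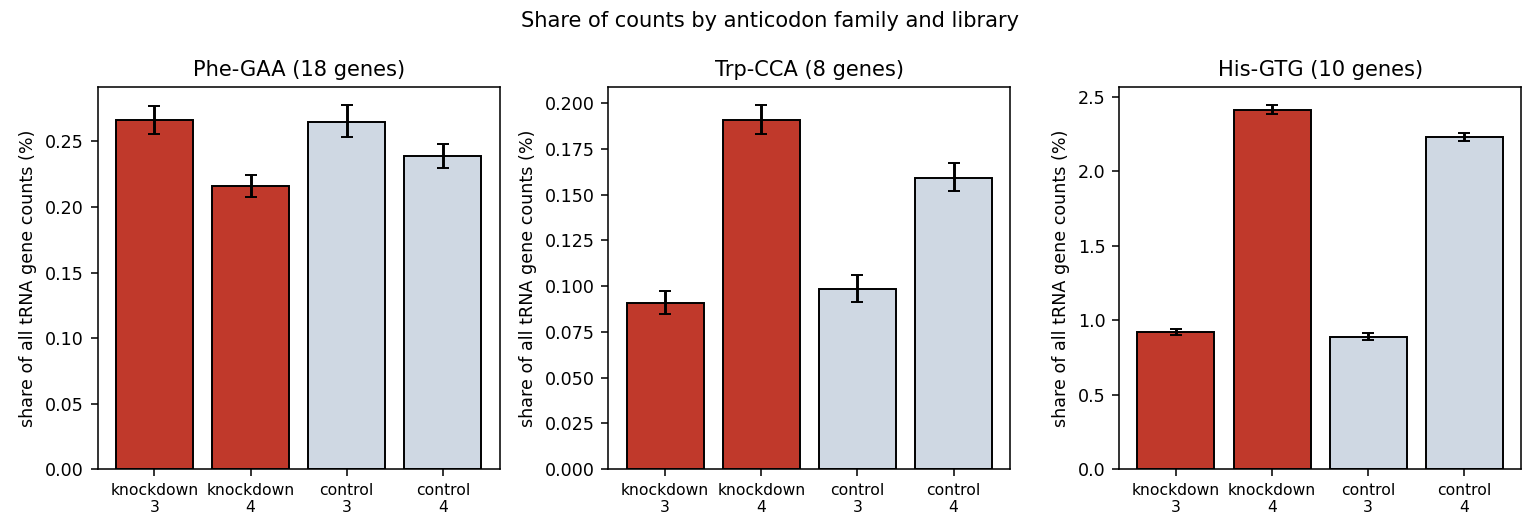
Share of all tRNA gene counts taken by the Phe-GAA, Trp-CCA and His-GTG families in each library (percent, 95% Wilson intervals for counting error as bars). For His-GTG the libraries numbered 4 stand at 2.41% (knockdown) and 2.23% (control), above 0.919% and 0.889% in those numbered 3, while knockdown and control of the same number stand close together.

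Within the histidine family, 4 of the 10 loci gave most of the reads. His-GTG-1-6, on chromosome 9 between annotated genes, had 1852 and 7546 counts in knockdown libraries 3 and 4 and 1569 and 6770 in control libraries 3 and 4. Next came His-GTG-1-8 on chromosome 15, with 1794 and 5666 counts in the knockdown libraries and 1252 and 4272 in the controls. Its neighbour His-GTG-1-7 had 1680 and 5266 counts in the knockdown libraries and 1372 and 4127 in the controls. These and His-GTG-1-4 on chromosome 1, with 1569 and 5131 counts in the knockdown libraries and 1112 and 3920 in the controls, made up 85.3% and 80.7% of the family in the knockdown libraries and 85.4% and 80.0% in the controls. The share of this set was closer between groups than between numbers.

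The other histidine loci were lower, although 9 of the 10 share a symbol number and all are 72 bases long. His-GTG-1-5 on chromosome 6 had 523 and 2747 counts in knockdown libraries 3 and 4, against 497 and 2750 in the controls. On chromosome 1, His-GTG-1-1 had 241 and 1958 counts in the knockdown libraries and 162 and 1319 in the controls. His-GTG-1-9, which lies 666 bases from His-GTG-1-8 and overlaps an exon of SHF, had 351 and 509 counts in the knockdown libraries and 185 and 370 in the controls. It was the histidine locus with the least difference between the numbers in raw counts among those named so far.

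A further pair of chromosome 1 loci stood far below the rest. His-GTG-1-2 had 20 and 186 counts in knockdown libraries 3 and 4 and 17 and 149 in the controls. The counts of His-GTG-1-3 were 23 and 179 in the knockdown libraries and 12 and 136 in the controls. His-GTG-1-3 has the same 72 bases as His-GTG-1-8. Between the highest and the lowest of these 9 loci the counts differed 92.6-fold and 42.2-fold in knockdown libraries 3 and 4 and 131-fold and 49.8-fold in control libraries 3 and 4. His-GTG-2-1, the only locus with another number, had 26 and 59 counts in the knockdown libraries and 31 and 46 in the controls. Reads from the mature part of identical loci cannot be told apart by sequence, and how such reads were assigned to loci is not stated, so the split of counts among copies is uncertain throughout.

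**Figure D2:**
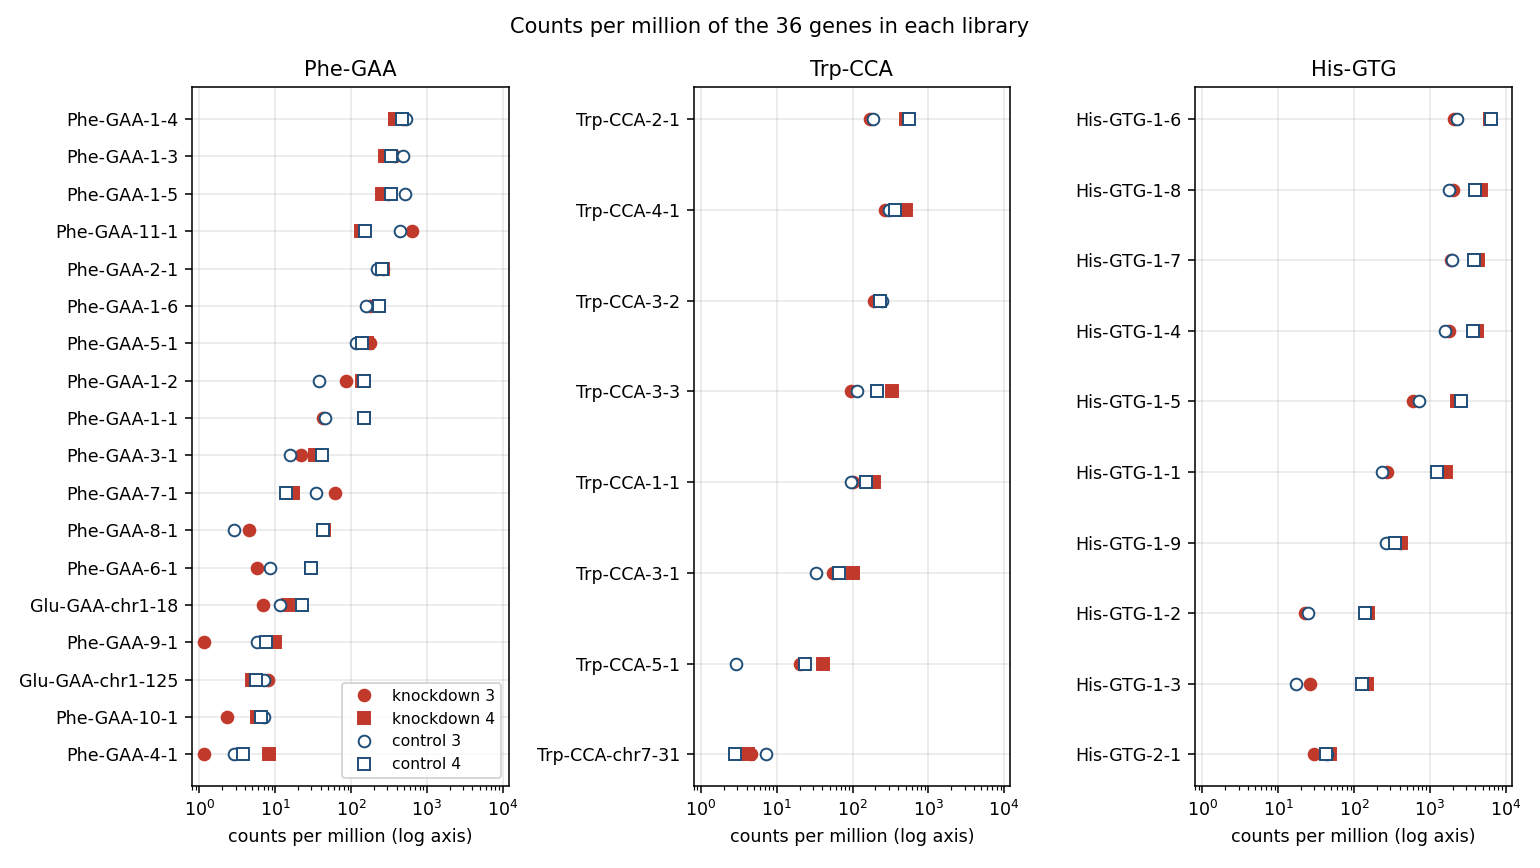
CPM (counts relative to the total of their library) of each of the 36 genes (horizontal log axis) in the knockdown (filled) and control (open) libraries, circles for number 3 and squares for number 4. Within the histidine family the loci span from His-GTG-1-6 down to His-GTG-1-3 and His-GTG-2-1, and for most histidine loci the squares lie right of the circles.

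Phenylalanine counts were spread over more loci. Phe-GAA-1-4 on chromosome 12 had 426 and 461 counts in knockdown libraries 3 and 4 and 373 and 500 in the controls. Phe-GAA-1-3 on chromosome 11 had 334 and 337 counts in the knockdown libraries and 338 and 357 in the controls. For Phe-GAA-1-5, whose sequence is shown above, 267 and 307 counts were found in the knockdown libraries against 359 and 362 in the controls. Both knockdown libraries had fewer raw counts of this gene than either control, although they were the deeper library of each number. Knockdown library 3 was shallower than control library 4, however. After the TMM scaling used in the test below, the groups overlapped, with 362 and 199 CPM in knockdown libraries 3 and 4 and 582 and 319 in the controls. The share of all genes with raw counts apart in this way was not computed. The 3 loci together gave 43.9% and 42.2% of the family in the knockdown libraries, against 57.8% and 47.7% in the controls. Over the 12 genes with a score of at least 50 alone they gave 58.3% and 46.9% in the knockdown libraries and 70.5% and 53.0% in the controls, where the groups overlapped.

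The remaining loci with the same symbol number, all 73 bases long, had fewer counts. Phe-GAA-1-6 on chromosome 19 had 156 and 279 counts in the knockdown libraries and 110 and 251 in the controls. Phe-GAA-1-2 and Phe-GAA-1-1 belong to the chromosome 6 group. The first had 76 and 171 counts in the knockdown libraries and 26 and 158 in the controls, and the second had 37 and 180 in the knockdown libraries and 32 and 159 in the controls. Both stood higher in the libraries numbered 4 of either group.

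Among the phenylalanine genes with other numbers, Phe-GAA-2-1 lies on chromosome 11, 8810 bases from Phe-GAA-1-3, and had 231 and 316 counts in the knockdown libraries and 155 and 271 in the controls. Phe-GAA-5-1 on chromosome 6 had 157 and 196 counts in the knockdown libraries and 81 and 148 in the controls. The RefSeq pseudogene Phe-GAA-11-1 had 555 and 166 counts in knockdown libraries 3 and 4 and 310 and 165 in control libraries 3 and 4. It had the most counts of the family in knockdown library 3, with 23.7% of them, but 6.34% in knockdown library 4, against 16.7% and 6.46% in controls 3 and 4. The deposited score of this locus is 27.39, below the threshold of 50.

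Of the 9 phenylalanine genes with a mean under 50 counts, 4 are the loci of 62 bases on chromosome 1, which include both genes with glutamate names. Their summed counts were 16 and 43 in the knockdown libraries and 22 and 45 in the controls. Phe-GAA-8-1, which overlaps an exon of PHIP, had 4 and 53 counts in knockdown libraries 3 and 4 and 2 and 45 in control libraries 3 and 4. Phe-GAA-7-1 had 54 and 21 counts in the knockdown libraries and 24 and 15 in the controls, an order of the numbers opposite to that of Phe-GAA-8-1. Counts of the 12 members of all 3 families with a mean under 50 lay between 1 and 59.

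Tryptophan had the fewest counts. Trp-CCA-4-1 on chromosome 12 had 234 and 613 counts in knockdown libraries 3 and 4 and 214 and 388 in the controls. Trp-CCA-2-1, in an intron of SLC47A1 on chromosome 17, had 151 and 608 counts in the knockdown libraries and 129 and 589 in the controls. Its share of the family was 18.9% and 26.3% in the knockdown libraries and 18.8% and 34.5% in the controls, so it exceeded Trp-CCA-4-1 in control library 4 and not in the other libraries.

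The 3 loci of Trp-CCA-3 are divided between chromosomes 6 and 17. Trp-CCA-3-2 had 170 and 281 counts in the knockdown libraries and 170 and 246 in the controls, and Trp-CCA-3-3 had 83 and 396 in the knockdown libraries and 79 and 223 in the controls. Trp-CCA-3-1 lies 12270 bases from Trp-CCA-3-2 and had 48 and 124 counts in the knockdown libraries and 23 and 70 in the controls. The highest of the 3 exceeded the lowest 3.54-fold and 3.19-fold in knockdown libraries 3 and 4 and 7.39-fold and 3.51-fold in the controls, a narrower range than within His-GTG-1. Trp-CCA-1-1, in an exon of the long noncoding RNA LINC00324, had 90 and 234 counts in the knockdown libraries and 66 and 161 in the controls. Trp-CCA-5-1 had 18 and 50 counts in the knockdown libraries and 2 and 25 in the controls, and Trp-CCA-chr7-31 had 3 to 5 counts in every library.

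**Figure D3:**
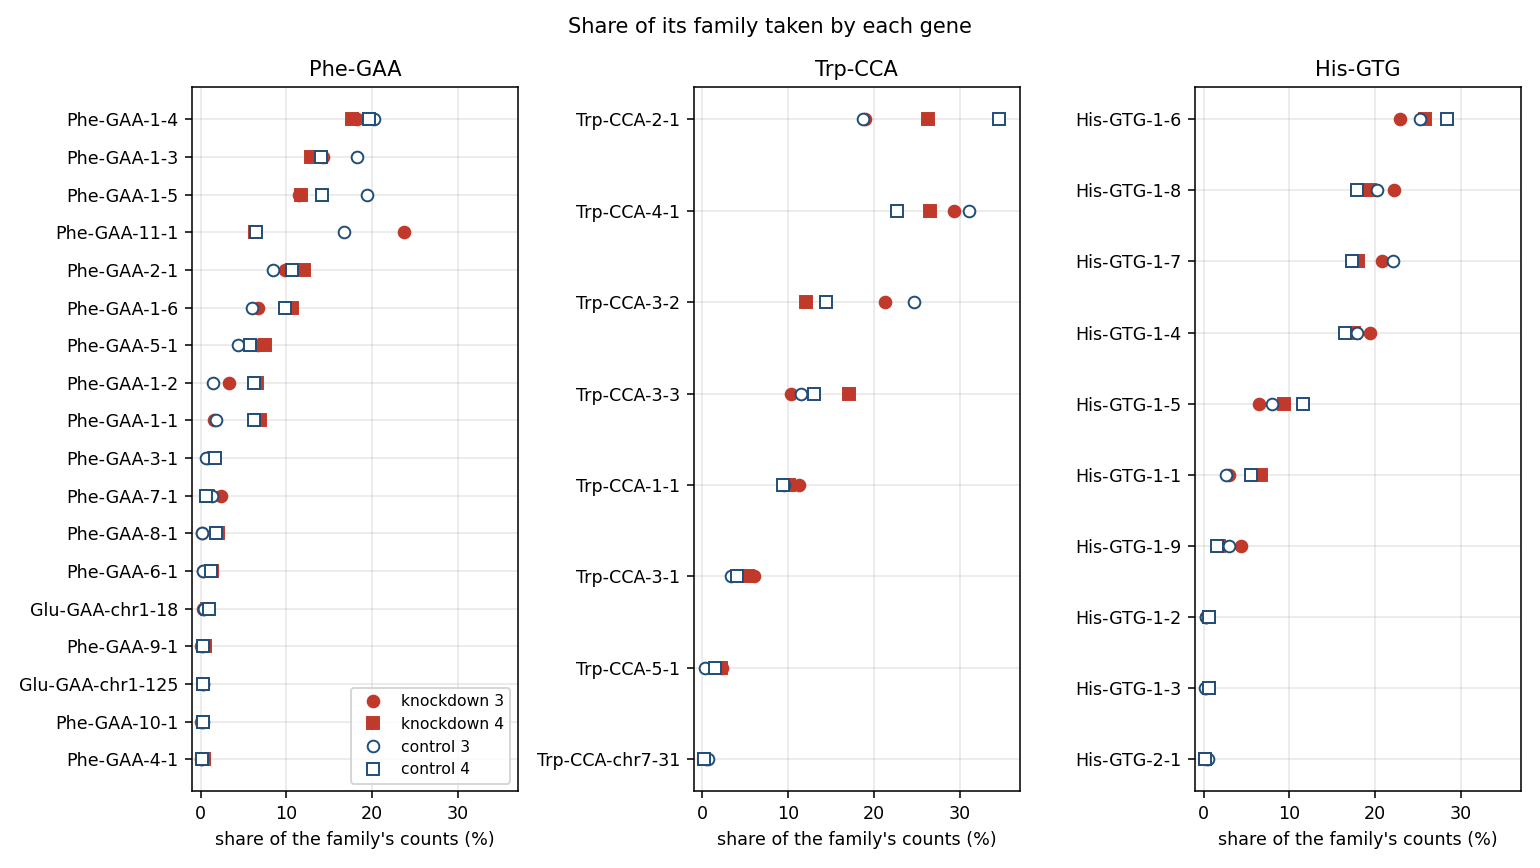
Share of the counts of its own family taken by each gene (percent, horizontal axis) in the knockdown (filled) and control (open) libraries, circles for number 3 and squares for number 4. Phe-GAA-1-5 shows both knockdown libraries at 11.4% and 11.7%, left of the controls at 19.4% and 14.2%, and Phe-GAA-11-1 shows the libraries numbered 3 right of those numbered 4.

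The knockdown was first compared with the control, the comparison for which the lines were made. No gene passed the test, 0 of 489 genes tested (0.0%) and 0 of the 31 members tested (edgeR's quasi-likelihood test, Benjamini-Hochberg adjusted p under 0.05). The 5 members not tested had too few counts. At an unadjusted p under 0.05 there was 1 gene in the whole table and 0 members, and DESeq2 called 0 as well. These fits hold no term for the replicate number, so differences between the numbers count as spread within a group. With that term 39 of the 489 genes (7.98%) and 1 of the 31 members passed in edgeR, as given in the last section. The members' median log2 fold change, knockdown over control, was -0.03, against -0.03 over all genes tested. By family the median was -0.12 for the 14 phenylalanine genes, 0.14 for the 7 tryptophan genes and 0.01 for the 10 histidine genes. In bulk RNA a lower level in every cell and a loss in some cells cannot be told apart.

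Families summed over their genes gave the same picture. Phe-GAA averaged 0.241 ± 0.0354% of counts in the knockdown libraries and 0.252 ± 0.0186% in the controls (SD, n = 2 each). Trp-CCA averaged 0.141 ± 0.0707% in the knockdown libraries and 0.129 ± 0.0430% in the controls. His-GTG averaged 1.67 ± 1.06% in the knockdown libraries and 1.56 ± 0.948% in the controls. Each difference was smaller than the SD between libraries, with two-sided exact permutation p-values of 1, 1 and 0.667, where 0.333 is the smallest that 2 against 2 libraries allow. Each group holds 1 library of each number, so this SD and these p-values include the difference between the numbers and say little about the knockdown. Within numbers 3 and 4, knockdown minus control was 0.0009 and -0.0228 percentage points for Phe-GAA. It was -0.0077 and 0.0314 for Trp-CCA, and 0.0300 and 0.185 for His-GTG. In edgeR's fit over 51 anticodon families, the log2 fold changes were -0.03 ± 0.57 for Phe-GAA, 0.17 ± 0.50 for Trp-CCA and 0.19 ± 0.85 for His-GTG (SE, adjusted p 0.995 for each), and 0 families were called (0.0%), with 0 at an unadjusted p under 0.05 and 0 by DESeq2. The signs for Trp-CCA and His-GTG turned with the scaling of the libraries. For comparison, the 8 families edited by the enzyme (A34 anticodons of alanine, arginine, isoleucine, leucine, proline, serine, threonine and valine, 115 genes) took 10.8% and 12.9% of counts in the knockdown libraries and 8.21% and 10.4% in the controls, groups that did not overlap (exact permutation p = 0.333, the smallest possible).

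Single members were next compared within each number, where a ratio rests on 1 library per group and has no error of its own. Of the 31 members tested, 6 were higher in the knockdown in both numbers, against 27.2% of all genes tested, and 12 were lower in both, against 34.4%. The scaling moved these ratios, since the median over all genes tested in number 4 was -0.09 when scaled by TMM on genes and 0.36 when scaled by TMM on families. The directions of 10 members held in both numbers under each of 6 scalings tried. The share of all genes tested for which this held was not computed, so these 10 are not shown to stand out. Of the 10, His-GTG-1-1, His-GTG-1-9, Phe-GAA-7-1, Trp-CCA-1-1, Trp-CCA-3-1 and Trp-CCA-5-1 were higher, and Phe-GAA-1-3, Phe-GAA-1-4, Phe-GAA-1-5 and Glu-GAA-chr1-18 were lower. Both scaled knockdown values lay above both control values for 3 members (His-GTG-1-9, Trp-CCA-3-1 and Trp-CCA-5-1), against 5.11% of all genes tested, and below them for 2 members (His-GTG-2-1 and Glu-GAA-chr1-18), against 7.98%.

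Phe-GAA-1-5 had a log2 ratio of -0.68 in number 3 and of -0.68 in number 4, knockdown over control. Under the 6 scalings this ratio lay between -0.83 and -0.65 in number 3 and between -0.68 and -0.23 in number 4. Its fold change over all 4 libraries was -0.68 ± 0.66 (log2, SE, adjusted p 0.998). With the replicate number as a term in edgeR it was -0.68 ± 0.19 (adjusted p 0.00961), and with that term in DESeq2 it did not pass (adjusted p 0.119). A measure that needs no scaling is its share of the phenylalanine counts, which was 11.4% and 11.7% in the knockdown libraries and 19.4% and 14.2% in the controls (exact permutation p = 0.333, the smallest possible). Over the genes with a score of at least 50 the share was 15.1% and 13.0% in the knockdown libraries and 23.7% and 15.7% in the controls. Family shares of 2 members tested, Phe-GAA-1-5 and Phe-GAA-1-4, lay below both controls in both knockdown libraries, against 8.7% of the 483 genes tested in families of at least 2 genes. Shares of 4 members (Phe-GAA-5-1, Trp-CCA-1-1, Trp-CCA-3-1 and Trp-CCA-5-1) lay above, against 9.52%. Phe-GAA-1-4 had 18.2% and 17.6% of its family in the knockdown libraries and 20.2% and 19.6% in the controls. Its groups overlapped over the genes with a score of at least 50, with 24.2% and 19.6% in the knockdown libraries and 24.6% and 21.7% in the controls. Phe-GAA-5-1 had 6.72% and 7.49% of the family in the knockdown libraries and 4.38% and 5.79% in the controls. Whether the difference in Phe-GAA-1-5 belongs to that locus or to how reads were divided among 6 loci of the same number was not tested. Summed over those 6 loci, the log2 fold change was -0.32 ± 0.61 (adjusted p 0.999).

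Trp-CCA-5-1 had the largest positive fold change of the members. Its ratio of CPM, knockdown over control, was 7.15 in number 3, on 18 against 2 counts (exact 95% interval for counting error 1.71 to 63.5), and 1.77 in number 4, on 50 against 25 counts (1.07 to 2.98). Its log2 fold change over all libraries was 1.12 ± 1.15 (SE, adjusted p 0.998), and lay between 0.41 and 3.19 with 1 library left out. For Trp-CCA-3-1 the log2 ratio was 0.79 in number 3 and 0.38 in number 4, with a fold change of 0.55 ± 0.65 over all libraries (log2, SE, adjusted p 0.998). Trp-CCA-1-1 had smaller ratios, 0.19 and 0.10. For His-GTG-1-9 the log2 ratios were 0.66 and 0.02, and the other chromosome 15 loci had 0.26 and -0.03 (His-GTG-1-8) and 0.03 and -0.09 (His-GTG-1-7). None of these differences exceeded the spread between libraries of 1 group in the test, a spread that includes the difference between the numbers. With the replicate number as a term in edgeR none of them passed either. The log2 fold change was then 1.04 ± 0.44 for Trp-CCA-5-1 (SE, adjusted p 0.149). It was 0.54 ± 0.28 for Trp-CCA-3-1 (adjusted p 0.264) and 0.33 ± 0.19 for His-GTG-1-9 (adjusted p 0.342).

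**Figure D4:**
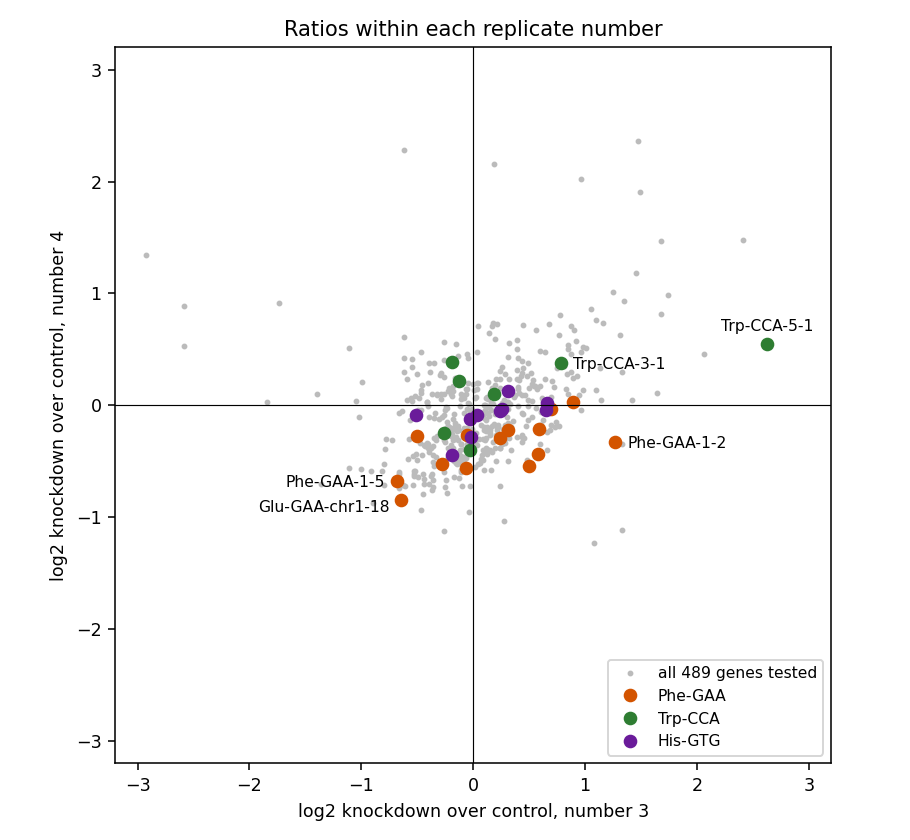
Log2 ratios of knockdown over control in the libraries numbered 3 (horizontal axis) and 4 (vertical axis), for all 489 genes tested (grey) and for the 31 members tested (colours by family). Phe-GAA-1-5 lies at -0.68 on both axes, Trp-CCA-5-1 lies farthest right, at 2.63 and 0.55, and most members lie near the centre of the grey points.

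The replicate number separated these genes far more than the knockdown did. With the group as a second term, edgeR's quasi-likelihood test called 20 of the 31 members different between the numbers, 64.5%, against 77.7% of all genes tested. Of these, 15 were higher in number 4, against 40.3% of all genes, and 5 were lower, against 37.4%. What sets the numbers apart (a culture, an extraction, a sequencing run) is not stated in the labels. The test draws the spread of each gene partly from the other genes, so its small p-values do not rest on the 4 libraries of that gene alone.

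Histidine genes were called higher in number 4 at 8 of 10 loci, against 40.3% of all genes tested, and none was called lower. All but 1 of these 10 loci share a symbol number, and how reads were assigned among identical loci is not stated. The 8 calls are therefore not independent observations. The log2 fold change, number 4 over number 3, was 2.20 ± 0.30 for His-GTG-1-3, 2.20 ± 0.30 for His-GTG-1-2 and 2.05 ± 0.19 for His-GTG-1-1, all on chromosome 1. It was 1.46 ± 0.21 for His-GTG-1-5 and 1.10 ± 0.25 for His-GTG-1-6. The remaining called loci lay lower, with 0.79 ± 0.23 for His-GTG-1-4, 0.74 ± 0.23 for His-GTG-1-8 and 0.65 ± 0.23 for His-GTG-1-7 (SE, highest adjusted p of the 8 loci 0.00731). His-GTG-1-9 gave -0.22 ± 0.19 (adjusted p 0.291) and His-GTG-2-1 gave -0.09 ± 0.33 (adjusted p 0.794), and neither passed the test. Loci with identical bases thus gave different values, from 2.20 for His-GTG-1-3 to -0.22 for His-GTG-1-9. The share of the family taken by His-GTG-1-9 was 1.74% in number 4 and 4.34% in number 3 of the knockdown, and 1.55% and 2.98% in the controls.

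At the level of the family, His-GTG in number 4 was 2.63 times its share in number 3 in the knockdown and 2.51 times in the control. These shares rest on plain library totals. After TMM scaling over families the log2 fold change was smaller, 0.89 ± 0.13 (SE, adjusted p 0.0418 over 51 families, of which 54.9% were called). With library totals in the fit it was 1.41 ± 0.13. The other families with queuosine at position 34 did not move in 1 direction. Asp-GTC was also higher in number 4, with 3.75% of counts against 0.711% in number 3 of the knockdown, and 4.26% against 0.898% in the control. Asn-GTT was lower in number 4, with 1.46% against 5.06% in the knockdown and 1.37% against 4.23% in the control. Tyr-GTA was lower too, with 2.60% against 5.79% in the knockdown and 2.17% against 4.73% in the control.

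Phenylalanine genes moved in both directions between the numbers. Phe-GAA-8-1 had the largest difference of all members, 3.02 ± 0.56 higher in number 4 (log2, SE, adjusted p 2.43e-07). Its CPM ratio, number 4 over number 3, was 9.61 in the knockdown (exact 95% interval for counting error 3.54 to 36.6) and 14.7 in the control (3.84 to 125), on 4 and 2 counts in the libraries numbered 3. Phe-GAA-6-1, Phe-GAA-1-1 and Phe-GAA-1-2 were also higher, by 1.64 ± 0.53, 1.32 ± 0.26 and 0.79 ± 0.25. With DESeq2 the fold changes of Phe-GAA-6-1 and Phe-GAA-1-2 were 1.66 and 0.87 and did not pass (adjusted p 0.0900 and 0.0739). The pseudogene Phe-GAA-11-1 fell by 2.30 ± 0.20 in number 4 (adjusted p 5.25e-26) and Phe-GAA-7-1 fell by 2.06 ± 0.38 (adjusted p 1.91e-07).

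Loci of Phe-GAA-1 parted as well. Phe-GAA-1-3 fell by 0.92 ± 0.19, Phe-GAA-1-5 by 0.86 ± 0.19 and Phe-GAA-1-4 by 0.70 ± 0.19 on the log2 scale in number 4, while the chromosome 6 loci Phe-GAA-1-1 and Phe-GAA-1-2 were higher and Phe-GAA-1-6 gave 0.04 ± 0.21 (adjusted p 0.872). Summed over the family, Phe-GAA fell by 0.69 ± 0.07 in number 4 (log2, SE, adjusted p 0.0266). Its share of all counts in number 4 was 0.812 times that in number 3 in the knockdown and 0.901 times in the control. With plain library totals the fold change was -0.17 and did not pass the test. The family sum includes 6 genes with a score under 50, Phe-GAA-11-1 among them. From number 3 to number 4 these went from 575 to 262 counts in the knockdown and from 334 to 255 in the control. The 12 genes with a score of at least 50 went from 1763 to 2355 and from 1517 to 2301, in deeper libraries. Those 12 were not tested alone, so the fall of the sum is not shown for them.

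Of the 7 tryptophan loci tested 3 were called higher in number 4, a share near the 40.3% of all genes tested. Trp-CCA-2-1 was higher by 1.13 ± 0.20, Trp-CCA-3-3 by 0.91 ± 0.22 and Trp-CCA-5-1 by 0.98 ± 0.46 on the log2 scale (SE, highest adjusted p 0.0434). Trp-CCA-5-1 did not pass with DESeq2 (1.32, adjusted p 0.173) or without the group term (0.93, adjusted p 0.138). The other 4, Trp-CCA-1-1, Trp-CCA-3-1, Trp-CCA-3-2 and Trp-CCA-4-1, did not pass the test. The family gave 0.42 ± 0.24 (adjusted p 0.266), and passed with library totals or with DESeq2. Its share of counts in number 4 was 2.10 times that in number 3 in the knockdown and 1.62 times in the control. The direction of all 3 families between the numbers, Phe-GAA lower and Trp-CCA and His-GTG higher in number 4, held in both groups under each of the 6 scalings.

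**Figure D5:**
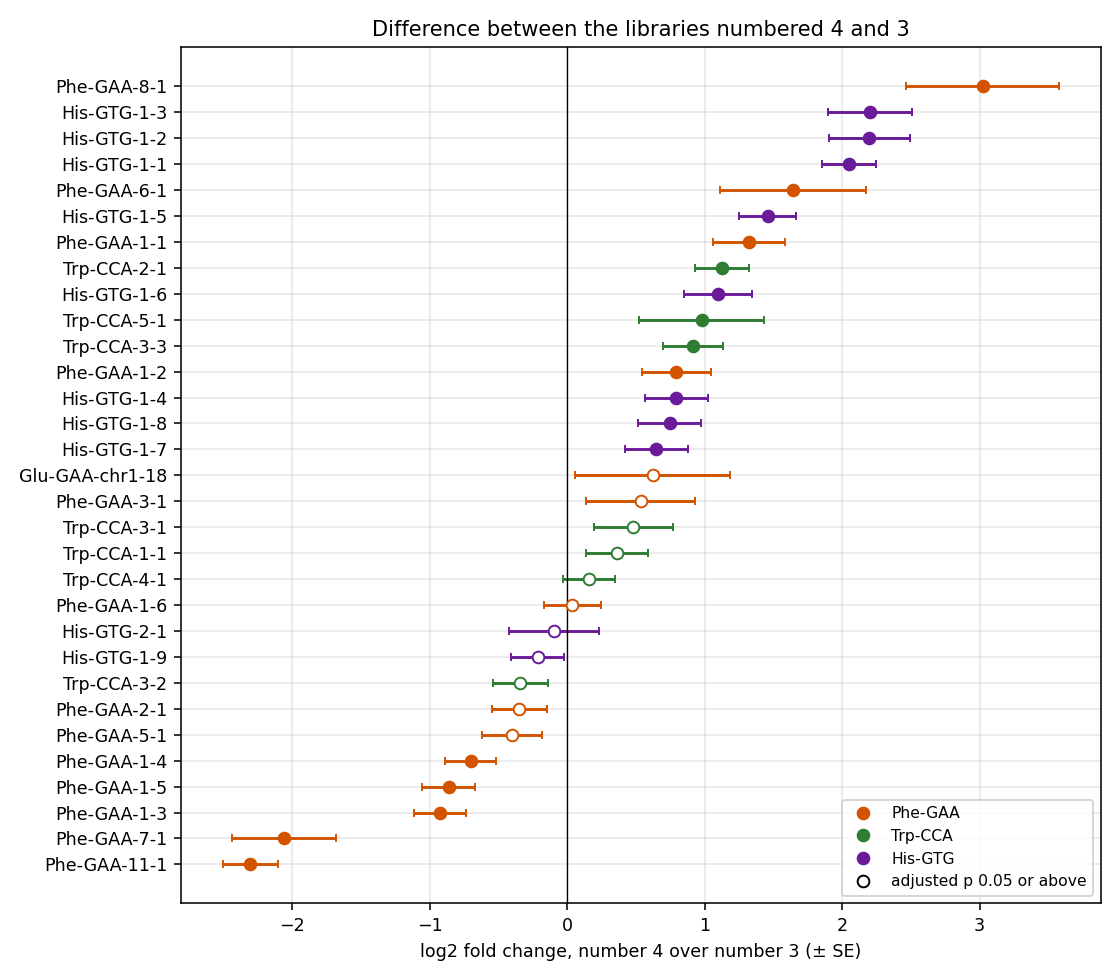
Log2 fold change of number 4 over number 3 with its SE for the 31 members tested, with the group as a second term. Filled points have an adjusted p under 0.05. Phe-GAA-8-1 stands highest at 3.02 and Phe-GAA-11-1 lowest at -2.30, and 8 of the 10 histidine loci are filled and right of 0.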

How the data were processed

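Per the labels, total RNA was made into small RNA libraries with a size selection. The authors deposited unnormalized counts for each tRNA gene, with 1 column per library code. All count columns had a group. Per the submitters' processing notes Bowtie2 2.2.2 and hg38 (GRCh38) were used, and summarizeOverlaps is named in the labels. The treatment of multi-mapping reads, of mismatches at modified bases, of strand and of lanes is not stated. The deposited score of each gene is the authors' value. The flag for introns, the number headed mismatch and the positions are as deposited.

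Counts of the whole table were tested with edgeR 4.0.16 (R 4.3.3): filterByExpr with a minimum count of 10, TMM scaling, quasi-likelihood test, Benjamini-Hochberg adjustment, separately for 489 genes, 51 anticodon families (rows named nm- left out) and 326 groups of copies with the same symbol number. SEs are the fold change over the root of F. Ratios within a number are of TMM-scaled counts plus 0.5. Exact permutation tests and intervals used scipy 1.17.1. Alternatives were DESeq2 1.42.0, library totals, gene-level TMM factors for families, no filter, the replicate number as a term and leaving out each library. Library totals of 698143 to 1211292 counts set the precision, and a gene with 3 counts had 2.48 to 4.30 CPM.

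Members with a mean of at least 50 counts were named with every count, and others where a name, position or call singled them out. The members, lists and tests were chosen with earlier results of these data known.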

Additional observations from a re-analysis of the deposited data

How the results depend on the processing

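The count of genes called between knockdown and control was 0 with library totals, DESeq2 and no filter. It was also 0 with any library left out, where the lone library of a group is assumed to vary like the other group, so this 0 does not bear on stability. The labels do not say that the replicate number marks a shared batch, and only 2 numbers exist. Deviations from the group means correlated between libraries of the same number (0.935 over 489 genes). With the replicate number as a block, 39 genes (7.98%) were called, 76 with library totals added, 24 in DESeq2 and 42 with no filter, and copy groups gave 45, 52, 10 and 30 under the same settings, with 0 groups of Phe, Trp or His. Among the members the block called 1 gene, Phe-GAA-1-5, at -0.68 ± 0.19 (adjusted p 0.00961), -0.59 with library totals and -0.60 with no filter, each time 1 member, and 0 in DESeq2. No family was called under the block.

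The sign of 2 family values turned with the scaling. Trp-CCA, knockdown over control on the log2 scale, was -0.017 with DESeq2, -0.032 with the block in DESeq2, -0.020 with gene-level TMM factors and -0.023 with these and the block. His-GTG was -0.043, -0.024, -0.055 and -0.013 under the same settings. Between numbers 4 and 3, Phe-GAA was -0.17 with library totals and no longer passed, and Trp-CCA was 0.94 with library totals and 0.51 with DESeq2 and passed. The cause was not tested. Leaving out 1 library at a time gave -0.55 to 0.28 for Phe-GAA, -0.24 to 0.29 for Trp-CCA and -0.43 to 0.60 for His-GTG, and among genes -1.14 to -0.18 for Phe-GAA-1-5, 0.28 to 1.06 for Trp-CCA-3-1 and 0.13 to 0.61 for His-GTG-1-9. Family signs reversed without knockdown library 4 and without control library 3, where the numbers are unbalanced between groups. Share differences, knockdown minus control in percentage points, ran from -0.0360 to 0.0140 (Phe-GAA), -0.0381 to 0.0618 (Trp-CCA), -0.640 to 0.855 (His-GTG) and -0.664 to 0.881 (all 3), and within families from -4.01 to -0.907 (His-GTG-1-6), -2.24 to -1.64 (Phe-GAA-1-4) and -11.9 to 3.87 (Trp-CCA-2-1). Between the numbers, Phe-GAA-1-4 lost its call with library totals. Leaving out libraries was not run for that comparison, since 3 libraries with both terms leave no residual degrees of freedom. Low counts limit the 12 members with a mean under 50 counts.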
